A study of Mus musculus with 6 samples.

Results

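The levels of 41 genes that copy DNA or prepare and follow S phase were followed across single-cell RNA libraries of mouse neural tube organoids. The genes were taken as a fixed list of symbols, and all 41 were found among the 17296 gene symbols that both deposited tables share. A cell licenses its replication origins in G1, when the origin recognition complex, Cdc6 and Cdt1 load the MCM helicase on DNA. At the start of S phase Cdc45, the GINS complex and Mcm10 turn the helicase on, primase and the DNA polymerases copy the strands with the sliding clamp and its loader, and enzymes of nucleotide supply and histone deposition work alongside. In the developing neural tube, progenitors cycle and newborn neurons leave the cell cycle, and the E2F family of transcription factors is known to drive many of these genes at the G1 to S transition.

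Every library came from organoids of the same embryonic stem cell line, Sox1::eGFP;Bra::mCherry, which carries reporters of Sox1 and Brachyury, grown in Matrigel. The groups were non-elongated organoids at day 6 (1 library), elongated organoids at day 10, day 8 and day 7 (1 library each), and elongated organoids at day 6 (2 libraries, labelled batch 1 and batch 2 and called replicates 1 and 2 below). Each library pooled many organoids of a single line, and no group other than elongated day 6 was replicated. The labels do not say whether the duplicates came from separate cultures beyond their batch names, so p-values rest on the spread between those 2 libraries.

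The libraries held 2076 to 3677 cells and 74072752 to 152742819 UMIs (unique molecular identifiers, each a captured transcript), with median UMIs per cell of 22053 at day 10 and 31471 to 59014 in the others. Pairs of libraries shared 1 to 4 cell barcodes. The non-elongated library and elongated replicate 1 were deposited in one table, and replicate 2 with days 7, 8 and 10 in another, with other class names. Of the members, Pcna, which encodes the sliding clamp, differed most between the day 6 duplicates of these tables. It measured 78.1 CPM (counts of UMIs scaled to a common library total) in non-elongated organoids and 75.8 CPM in elongated replicate 1, against 408 CPM in replicate 2 of the other table. The day 6 table also lists the processed pseudogene Pcna-ps2, with 1470 UMIs in the non-elongated library and 1650 in replicate 1, a symbol that the other table does not list. Its part in the gap was not tested. Pcna by itself is described below only within a table, but it is included in the sums, medians, counts and fits over the 41 genes. Without it the duplicates summed to 5032 and 4681 CPM. Across all members, the median log2 difference of replicate 2 minus replicate 1 was -0.09, and 27 of the 41 were lower in replicate 2.

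The promoters of 35 members were found in the RefSeq promoter table (build GRCm38.p6, 250 bases before to 50 after the start), and those of Gins1, Gins2, Gins4, Mcm4, Ccne2 and Rfc2 were not. An E2F-like run of letters (TTTGGCGC, TTTCGCGC, TTTGCCGC or TTTCCCGC on either strand) stood in 13 of the 35 members, 37.1%, and in 704 of all 27025 genes of the table and 4.30% of the 12259 that were also tested here. The letters CCAAT on either strand stood in 60.0% of members and 41.1% of all genes. These are matches of letters and not measured binding. The promoters of 4 members whose falls are described below are printed 5′ to 3′ along the gene's strand, with the E2F-like letters in capitals. They lie at chr4:108579204-108579503 (Orc1, plus strand), chr8:75109259-75109558 (Mcm5, plus strand), chr5:138171834-138172133 (Mcm7, minus strand) and chr7:44548766-44549065 (Pold1, minus strand).
Orc1: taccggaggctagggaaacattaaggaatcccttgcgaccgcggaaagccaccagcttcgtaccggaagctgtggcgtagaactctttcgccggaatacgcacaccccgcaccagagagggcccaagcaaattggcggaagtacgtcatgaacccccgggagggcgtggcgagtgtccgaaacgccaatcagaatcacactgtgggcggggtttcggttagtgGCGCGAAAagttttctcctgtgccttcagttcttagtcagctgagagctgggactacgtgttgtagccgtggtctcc
Mcm5: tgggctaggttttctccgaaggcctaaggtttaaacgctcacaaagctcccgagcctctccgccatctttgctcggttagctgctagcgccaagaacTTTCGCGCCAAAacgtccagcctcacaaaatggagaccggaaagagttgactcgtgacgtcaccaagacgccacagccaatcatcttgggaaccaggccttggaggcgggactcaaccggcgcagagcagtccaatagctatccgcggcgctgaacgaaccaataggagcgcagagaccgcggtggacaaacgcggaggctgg
Mcm7: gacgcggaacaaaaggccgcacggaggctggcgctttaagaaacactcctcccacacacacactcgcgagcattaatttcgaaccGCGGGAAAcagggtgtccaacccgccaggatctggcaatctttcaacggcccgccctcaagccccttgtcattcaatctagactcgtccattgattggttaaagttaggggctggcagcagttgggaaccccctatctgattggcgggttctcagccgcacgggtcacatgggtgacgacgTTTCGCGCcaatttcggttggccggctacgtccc
Pold1: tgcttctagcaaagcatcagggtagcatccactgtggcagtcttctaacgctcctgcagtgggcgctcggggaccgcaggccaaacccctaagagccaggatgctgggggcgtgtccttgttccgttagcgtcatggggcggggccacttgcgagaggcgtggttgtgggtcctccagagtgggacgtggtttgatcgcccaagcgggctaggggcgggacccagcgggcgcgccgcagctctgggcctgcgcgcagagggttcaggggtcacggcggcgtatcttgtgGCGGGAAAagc
The match in Orc1 begins 27 bases before the annotated start, and the 2 overlapping matches in Mcm5 form a single run from 153 bases before it. The printed promoter of Mcm7 holds a match on each side of its start and the match in Pold1 lies after the start. Another promoter listed for Mcm7 holds none, and a member with several promoters was counted if any of them held a match. The promoters of Ung, Mcm10 and Ccne1, whose falls were among the largest of the list, hold none of these letters.

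The comparison at day 6 asks whether organoids that did not elongate differ from those that did. The day 6 table calls its libraries NENT and SENT, and NENT was read as the non-elongated one, which the labels do not spell out. None of the 41 genes passed the test. The members together made 5353 CPM in non-elongated organoids and 5108 and 5089 CPM in elongated replicates 1 and 2. In edgeR's quasi-likelihood test no gene of the 16379 tested was called in either direction (percent called 0.0), 1137 had an unadjusted p under 0.05, and no member was among these; DESeq2 called 126 genes and again no member. The median log2 fold change of the members was 0.08, against -0.01 over all genes, and against replicate 1 of the same table it was 0.06. Against replicate 1, single members differed by -0.42 to 0.39 in log2 CPM. Dut, which removes dUTP from the nucleotide pool, measured 730 CPM in the non-elongated library and 640 and 634 CPM in the elongated duplicates. Ccne1, which encodes the cyclin E that drives cells into S phase, measured 125 CPM there and 95.8 and 90.7 CPM in the duplicates, a log2 fold change of 0.43, the highest of the list. Gins2, a GINS subunit, lay the other way, with 81.7 CPM in the non-elongated library and 109 and 88.8 CPM in the duplicates.

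Class by class the day 6 libraries stayed near each other. The summed level was 5462 CPM in the caudal epiblast class of the non-elongated library and 5407 CPM in that of replicate 1, and 5271 and 5119 CPM in the spinal cord class. It was 5062 and 5010 CPM in the anterior epiblast class, 4795 and 4454 CPM in midbrain, 4648 and 4546 CPM in hindbrain and 4240 and 4195 CPM in the class called surface ectoderm. Caudal epiblast and spinal cord were the highest of these classes and surface ectoderm the lowest in both libraries, while midbrain and hindbrain changed places. The mesenchyme class of the non-elongated library made 4032 CPM (143 cells), and replicate 1 had fewer than 20 cells of it. Within the 6 shared classes no member differed by 2-fold, among genes with at least 5 CPM in either library. Over all such genes, those 2-fold lower made 0.478% in caudal epiblast, 1.4% in spinal cord, 0.284% in anterior epiblast, 0.793% in midbrain, 0.707% in hindbrain and 4.63% in surface ectoderm. Those 2-fold higher made 0.656, 1.92, 0.459, 0.706, 1.12 and 6.4% in the same classes.

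**Figure D1:**
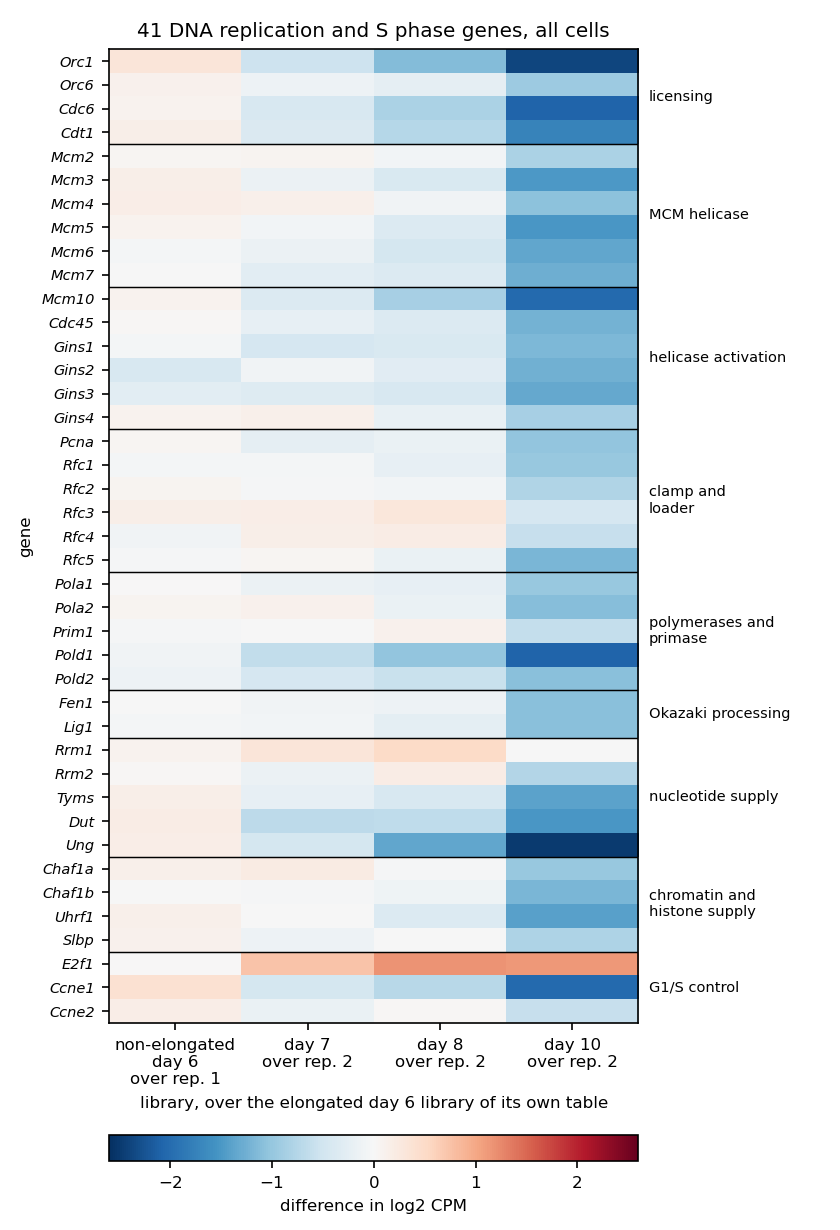
Difference in log2 CPM of each of the 41 genes (rows, grouped by role) between a library and the elongated day 6 library of its own table (columns: non-elongated day 6 over replicate 1, then days 7, 8 and 10 over replicate 2). The non-elongated column is near 0 for most genes, and at day 10 all rows but E2f1 are below 0, with Rrm1 at -0.01.

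From day 6 to day 10 the question is how the machinery changes as the organoids age. The summed level in elongated libraries was 5108 and 5089 CPM at day 6 (replicates 1 and 2), 4548 CPM at day 7, 4329 CPM at day 8 and 2393 CPM at day 10. Day 10 thus stood at 0.469 of the mean of the day 6 duplicates, and days 7 and 8 at 0.892 and 0.849. At day 10, 28 of the 41 members fell and none rose (adjusted p under 0.05, edgeR), where 12.3% of the 16379 genes fell and 14.1% rose. The median log2 fold change of the members was -1.17, against -0.01 over all genes. With no scaling between libraries all genes shifted up by 0.24 on the log2 scale, the members' median was -0.92 and 20 members fell. Of all 16379 genes, 1382 then fell and 2991 rose.

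The day 10 library also held cells that the day 6 libraries lacked. Neuron markers (9 genes) summed to 3014 CPM at day 10, against 170 and 174 CPM in the day 6 duplicates, with none of the 9 at 0 in either. The authors' interneuron classes held 28.0% of the UMIs at day 10 and 6.02% at day 8. In sums over a library, fewer cells of a type and less RNA per cell cannot be told apart, so changes over all cells are given first, and then within classes.

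**Figure D2:**
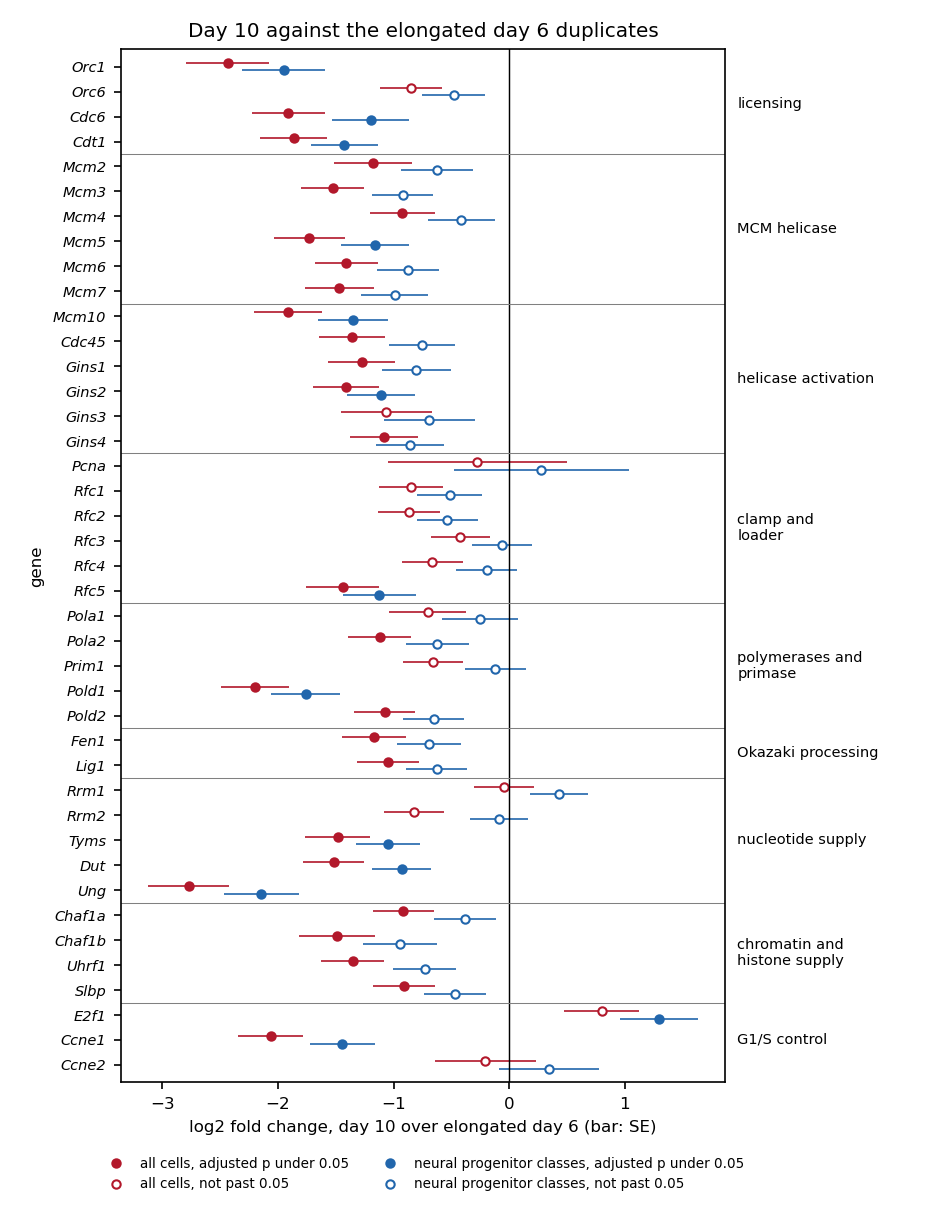
Log2 fold change of each gene at day 10 over the elongated day 6 duplicates (horizontal axis, bar: SE), over all cells and over the neural progenitor classes alone. Filled points passed an adjusted p of 0.05, which 28 genes did over all cells and 13 within progenitor classes, and E2f1 is the only filled point above 0.

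Among the licensing factors, Orc1, Cdc6 and Cdt1 fell at day 10 and Orc6 did not pass. Orc1, the largest subunit of the origin recognition complex (chromosome 4, 108579423 to 108614833, mm10), measured 20.7 and 19.4 CPM in the day 6 duplicates, 13.3 CPM at day 7, 8.83 CPM at day 8 and 3.71 CPM at day 10. Each later library was below the one before, and no day 7, 8 or 10 value reached the duplicates. Its log2 fold change at day 10 was -2.43 ± 0.36 (SE; adjusted p = 0.00322). Orc6, the smallest subunit of the same complex, measured 144 and 164 CPM at day 6, 150 CPM at day 7, 139 CPM at day 8 and 85.3 CPM at day 10, and its log2 fold change was -0.85 ± 0.27, short of the threshold (adjusted p = 0.0538). Cdc6 and Cdt1, which bring the helicase to the origin, had log2 fold changes of -1.91 ± 0.32 (adjusted p = 0.00522) and -1.86 ± 0.29 (adjusted p = 0.00403).

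All 6 subunits of the MCM helicase fell at day 10, with log2 fold changes from -1.73 (Mcm5) to -0.92 (Mcm4) and adjusted p up to 0.0475. Mcm5 measured 217 and 164 CPM at day 6, 157 CPM at day 7, 128 CPM at day 8 and 57.6 CPM at day 10. Days 7 and 8 lay below both duplicates, but nearer to replicate 2 than the duplicates lie to each other. The day 10 value of Mcm5 lay further below. Its log2 fold change at day 10 was -1.73 ± 0.31 (adjusted p = 0.00707). Mcm7 had 365 and 283 CPM at day 6, 233 CPM at day 7, 221 CPM at day 8 and 117 CPM at day 10, a log2 fold change of -1.47 ± 0.29 (adjusted p = 0.011).

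Of the 6 genes that turn the helicase on, 5 fell and Gins3 missed the threshold (adjusted p = 0.0828). Mcm10, which helps to open the loaded helicase, measured 43.0 and 50.9 CPM at day 6, 39.8 CPM at day 7, 28.2 CPM at day 8 and 12.5 CPM at day 10 (log2 fold change -1.91 ± 0.30, adjusted p = 0.00392). Gins2 measured 109 and 88.8 CPM at day 6, 83.7 CPM at day 7, 72.7 CPM at day 8 and 37.2 CPM at day 10 (log2 fold change -1.41 ± 0.29, adjusted p = 0.0118). In both, day 10 lay below every other library.

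Of the 6 genes of the clamp and its loader, only Rfc5, a loader subunit, passed the test, with 116 and 83.6 CPM at day 6, 86.1 CPM at day 7, 74.6 CPM at day 8 and 36.9 CPM at day 10 (log2 fold change -1.44 ± 0.32, adjusted p = 0.0153). The loader subunits Rfc1, Rfc2, Rfc3 and Rfc4 had log2 fold changes from -0.86 to -0.42 and adjusted p from 0.0507 (Rfc2) to 0.259 (Rfc3). Pcna measured 408 CPM in replicate 2, 345 CPM at day 7, 360 CPM at day 8 and 200 CPM at day 10 of the same table. Its day 10 level was 1.03 lower than replicate 2 on the log2 scale, a difference with no test.

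Of the polymerase and primase genes, 3 of 5 fell. Pold1, the catalytic subunit of polymerase delta (chromosome 7, 44532746 to 44548849, mm10), measured 59.5 and 51.0 CPM at day 6, 32.6 CPM at day 7, 24.9 CPM at day 8 and 12.0 CPM at day 10. The day 7 value already lay outside the duplicates. Its log2 fold change at day 10 was -2.20 ± 0.30 (adjusted p = 0.0022). Its partner subunit Pold2 measured 99.1 and 99.2 CPM at day 6, 73.3 CPM at day 7, 66.2 CPM at day 8 and 47.0 CPM at day 10, a smaller log2 fold change of -1.08 ± 0.27 (adjusted p = 0.0237). Pola2, the accessory subunit of polymerase alpha, also fell, while its catalytic subunit Pola1 and the primase gene Prim1 had log2 fold changes of -0.71 and -0.66 that did not pass. Fen1 and Lig1, which trim and seal Okazaki fragments, both fell. Fen1 measured 94.5 and 83.8 CPM at day 6, 78.7 CPM at day 7, 76.5 CPM at day 8 and 39.7 CPM at day 10 (log2 fold change -1.17 ± 0.27, adjusted p = 0.0197). Lig1 measured 181 and 192 CPM at day 6, 183 CPM at day 7, 160 CPM at day 8 and 90.1 CPM at day 10 (log2 fold change -1.05 ± 0.27, adjusted p = 0.0259).

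Of the 5 genes of nucleotide supply and uracil repair, 3 fell. Ung, which removes uracil from DNA (chromosome 5, 114130386 to 114139323, mm10), had the largest fall of the list. It measured 74.6 and 51.7 CPM at day 6, 37.8 CPM at day 7, 20.4 CPM at day 8 and 9.26 CPM at day 10, and no later library overlapped the duplicates. Its log2 fold change at day 10 was -2.77 ± 0.35 (adjusted p = 0.00168). Dut measured 640 and 634 CPM at day 6, 398 CPM at day 7, 402 CPM at day 8 and 222 CPM at day 10, so the duplicates were close and the day 7 library already lay below both (day 10 log2 fold change -1.52 ± 0.26, adjusted p = 0.00639). Tyms, the thymidylate synthase gene, fell by 1.48 on the log2 scale at day 10 (adjusted p = 0.00874). The ribonucleotide reductase genes did not pass the test. Rrm1, the large subunit, measured 117 and 112 CPM at day 6, 139 CPM at day 7, 157 CPM at day 8 and 111 CPM at day 10, a log2 fold change of -0.05 ± 0.26 (adjusted p = 0.91). Rrm2, the small subunit, measured 305 and 285 CPM at day 6, 257 CPM at day 7, 328 CPM at day 8 and 167 CPM at day 10 (log2 fold change -0.82 ± 0.26, adjusted p = 0.0531).

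The 4 genes of chromatin and histone supply all fell. Chaf1b, a subunit of the chromatin assembly factor that follows the fork, measured 102 and 69.3 CPM at day 6, 68.0 CPM at day 7, 64.2 CPM at day 8 and 30.4 CPM at day 10 (log2 fold change -1.49 ± 0.33, adjusted p = 0.0157). Slbp, whose protein binds the stem-loop of histone mRNAs, measured 221 and 192 CPM at day 6, 176 CPM at day 7, 190 CPM at day 8 and 110 CPM at day 10 (log2 fold change -0.91 ± 0.27, adjusted p = 0.0434). Uhrf1, needed to copy DNA methylation after the fork, and Chaf1a, the other assembly factor subunit on the list, had log2 fold changes of -1.35 and -0.92.

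Of the 3 G1/S regulators on the list only Ccne1 fell. Ccne1 measured 95.8 and 90.7 CPM at day 6, 66.0 CPM at day 7, 54.9 CPM at day 8 and 22.3 CPM at day 10, each day below the one before (log2 fold change -2.06 ± 0.28, adjusted p = 0.00239). E2f1, which encodes an activator of the family, was the single member with a positive value at day 10. It measured 25.5 and 16.7 CPM at day 6, 27.9 CPM at day 7, 37.5 CPM at day 8 and 36.8 CPM at day 10. The later libraries lay above both duplicates, but the duplicates were far apart and the log2 fold change of 0.80 ± 0.32 did not pass (adjusted p = 0.107). Ccne2, the other cyclin E gene, had a log2 fold change of -0.21 ± 0.44 and opposite signs against the 2 duplicates.

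Fewer members were called on the earlier days. No member was called at day 7, where 2.09% of all genes were called lower and 1.9% higher and 3 members had an unadjusted p under 0.05; the members' median log2 fold change was -0.20. DESeq2 also called none at day 7, where it called 985 of 14278 genes. At day 8 the median was -0.41 and 2 members fell, Ung (log2 fold change -1.63 ± 0.33, adjusted p = 0.0175) and Pold1 (-1.15 ± 0.28, adjusted p = 0.0349), where 6.64% of all genes were called lower and 6.74% higher, so the members' share was no larger than that of all genes. For days 7 and 8 the medians were smaller with per-cell means (-0.091 and -0.23) and with total UMIs (-0.081 and -0.25). With RLE, another scaling between libraries, they were -0.22 and -0.44. With no scaling 1 member was called at day 8, where 907 of 16379 genes were called lower and 1337 higher. Fitted as a slope per day over the 5 elongated libraries, 28 members fell and none rose, where 12.5% of 15775 genes fell and 11.3% rose. The steepest slopes were those of Ung (-0.70 ± 0.07 log2 units per day, adjusted p = 0.00787), Orc1 (-0.61 ± 0.06, adjusted p = 0.00776) and Pold1 (-0.55 ± 0.05, adjusted p = 0.00785). These counts rest on few libraries. The slope called 5 members without the day 10 library, all lower, where 938 of 15571 genes fell and 790 rose. It called 0 without elongated day 6 replicate 2 (when no gene at all was called). Without any 1 of the other libraries it called 19 to 24, where 907 to 1540 genes fell.

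Within the neural progenitor classes alone fewer members passed the test. The classes pooled here were midbrain, hindbrain, mid/hindbrain, spinal cord, proliferative progenitors and dorsal progenitors. Cells of the epiblast, crest, neuron, surface ectoderm and mesenchyme classes were left out. Only the day 6 table names epiblast, surface ectoderm and mesenchyme classes, so the pools of the duplicates were not chosen alike. The pool kept 64.2% of cells in replicate 1 and 96.0% in replicate 2. Over all cells, epiblast markers (6 genes) summed to 203 CPM in each of these libraries. At day 10, 12 members fell and 1 rose, where 8.24% of 15789 genes fell and 8.85% rose, and the members' median log2 fold change was -0.69. Markers of other cells also differed within these pooled classes. Of the neuron markers 8 of 9 rose (median log2 fold change 4.99), and 5 of 6 epiblast and 7 of 7 surface ectoderm markers fell (medians -5.09 and -5.60), and their part in the members' changes was not tested. The genes that fell were Orc1, Cdc6, Cdt1, Mcm5, Mcm10, Gins2, Rfc5, Pold1, Tyms, Dut, Ung and Ccne1. All of these also fell over all cells. Ung measured 67.3 and 51.5 CPM in day 6 progenitors, 38.4 CPM at day 7, 21.9 CPM at day 8 and 13.4 CPM at day 10 (log2 fold change -2.14 ± 0.32, adjusted p = 0.00525). Pold1 measured 58.5 and 50.8 CPM at day 6, 32.7 CPM at day 7, 26.1 CPM at day 8 and 16.1 CPM at day 10 (log2 fold change -1.76 ± 0.30, adjusted p = 0.00809). Both courses ran as they did over all cells. E2f1 was the member that rose. In progenitors it measured 26.5 and 16.5 CPM at day 6, 28.1 CPM at day 7, 38.4 CPM at day 8 and 52.7 CPM at day 10, a log2 fold change of 1.29 ± 0.34 (adjusted p = 0.0378). Rrm1 in progenitors had 153 CPM at day 10 and 117 and 110 CPM at day 6 (log2 fold change 0.43 ± 0.25, adjusted p = 0.278). No member was called in progenitors at day 7, where 1.17% of genes were called lower and 1.34% higher, and 2 members had an unadjusted p under 0.05. At day 8 only Ung fell (-1.44 ± 0.31, adjusted p = 0.0286), where 4.81% of genes were called lower and 4.76% higher. With no scaling no member was called at day 8, where 563 of 15789 genes were called lower and 756 higher. The slope over day called 17 members lower and E2f1 higher, where 10.1% of 15403 genes fell and 8.02% rose. It called no member without replicate 1, when no gene at all was called, and none without replicate 2, when 5 of 14657 genes were. E2f1 was not called with any 1 library left out. With no scaling between libraries, 7 members were called in progenitors at day 10, of which 6 fell. Of all 15789 genes, 918 then fell and 1658 rose.

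Levels by class were read from the authors' annotation and carry no test, because classes come from the same cells and each has 1 library a day. The members were high in cycling classes and low in interneurons. At day 10 the dI1, dI2 and dI3 interneuron classes together made 752 CPM (95% counting interval 741 to 763, 1176 cells), against 4210 CPM (4186 to 4233, 1035 cells) in the mid/hindbrain class of the same library. At day 8 the interneurons made 1020 CPM (996 to 1044, 272 cells), against 4857 CPM (4840 to 4873) in mid/hindbrain. At day 10, 40 of the 41 members were at least 2-fold lower in interneurons than in mid/hindbrain, where 14.0% of 10198 genes were, and none was higher, where 18.2% were. At day 8, 39 members were that much lower, where 13.8% of genes were, and none higher, where 15.4% were.

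**Figure D3:**
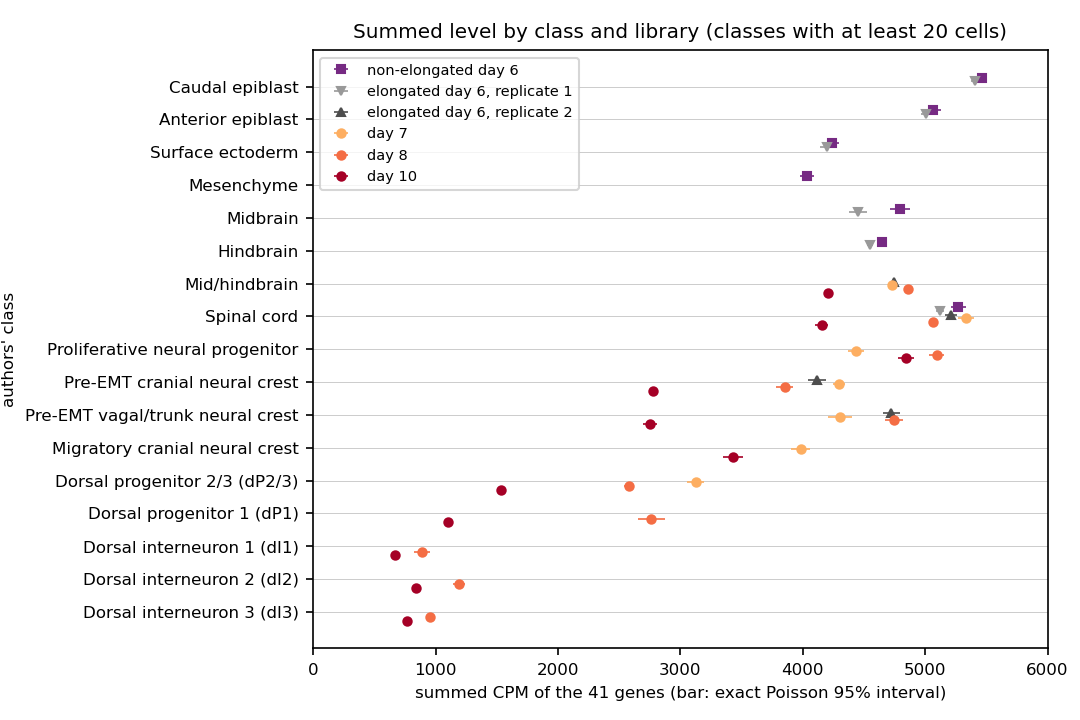
Summed CPM of the 41 genes (horizontal axis, bar: exact Poisson 95% interval) in each of the authors' classes with at least 20 cells, coloured by library. Interneuron classes lie between 666 and 1192 CPM and the dP1 and dP2/3 classes at day 10 at 1105 and 1535 CPM, against 4155 CPM or more in mid/hindbrain, spinal cord and proliferative cells.

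The interneurons did not lose all members in the same proportion. Cdc6 measured 0.362 CPM in interneurons at day 10 (9 UMIs) and 21.6 CPM in mid/hindbrain, 59.6-fold lower. Rrm2 measured 8.16 CPM in interneurons and 332 CPM in mid/hindbrain, 40.7-fold lower, and Mcm3 5.11 and 144 CPM. At the other end Gins4 was 1.60-fold lower in interneurons, E2f1 came next, and Orc6 was 2.30-fold lower. The folds of the members ran from 1.60 to 59.6, and the part of free RNA in the low counts was not tested. At 5000 UMIs a cell, Rrm2 was seen in 3.32% of interneurons (2.37 to 4.51%) and 70.0% of mid/hindbrain cells, and Orc6 in 26.2% (23.7 to 28.8%) and 43.9%. Without thinning, at median depths of 19948 and 25975 UMIs, Rrm2 was seen in 10.6 and 94.8% and Orc6 in 64.2 and 88.6%.

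The dorsal progenitor classes lay between these levels and were lower on later days. The dP2/3 class made 3124 CPM at day 7, 2581 CPM at day 8 and 1535 CPM at day 10, and the dP1 class 2759 CPM at day 8 and 1105 CPM at day 10. Neuron markers summed to 2462 CPM in dP1 and 2027 CPM in dP2/3 at day 10, against 307 CPM in mid/hindbrain, so cells of these classes also carry neuronal transcripts. In dP1, 39 of the 41 members were at least 2-fold below mid/hindbrain at day 10, where 10.6% of genes were, and 1 was higher, where 6.83% were. In dP2/3, 35 were lower, where 6.64% of genes were, and none higher, where 6.16% were. The exceptions in dP1 were Mcm2, with 53.9 CPM in dP1 and 80.6 CPM in mid/hindbrain, and E2f1. E2f1 measured 101 CPM in dP1 and 43.6 CPM in mid/hindbrain, and dP1 at day 10 was its highest class of the table, followed by proliferative progenitors at day 10 with 91.8 CPM. It stood at 31.9, 20.2 and 10.3 CPM in dI1, dI2 and dI3.

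The crest classes were lower than spinal cord on every day, and at day 10 they lay between the interneurons and mid/hindbrain. Pre-EMT cranial neural crest, cells before they leave the neural tube, made 4114 CPM at day 6, 4297 CPM at day 7, 3853 CPM at day 8 and 2777 CPM at day 10. The vagal/trunk class made 4723, 4302, 4745 and 2752 CPM on the same days, and migratory cranial crest 3984 CPM at day 7 and 3430 CPM at day 10.

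Within the mid/hindbrain class, where most day 6 cells lie, the summed level hardly moved until day 8. It was 4749 CPM (4737 to 4760) in day 6 replicate 2, 4726 CPM at day 7, 4857 CPM at day 8 and 4210 CPM at day 10. The spinal cord class followed with 5210, 5335, 5060 and 4155 CPM. At day 10, 3 members were at least 2-fold below day 6 in mid/hindbrain (Ung, Pold1 and Orc1), where 6.71% of 9721 genes were, and 1 was that much above (E2f1), where 13.4% of genes were. In the spinal cord class Orc1, Mcm10 and Ung were that much lower, where 6.05% of genes were, and E2f1 that much higher, where 12.6% were. On earlier days fewer members passed that mark. At day 7 none did, where 3.56% of genes were lower and 5.32% higher in mid/hindbrain and 2.97% and 3.94% in spinal cord. At day 8 E2f1 was higher in mid/hindbrain, where 5.48% of genes were lower and 9.62% higher, and Ung lower in spinal cord, where 4.87% and 7.89% were. Single genes differed from this sum. Ung measured 48.5, 41.4, 25.3 and 18.0 CPM in mid/hindbrain at days 6, 7, 8 and 10. E2f1 measured 15.3, 29.1, 35.6 and 43.6 CPM on those days and Rrm1 102, 143, 163 and 190 CPM. Pcna stayed at 379, 360, 401 and 379 CPM. The median log2 difference of the members, day 10 over day 6, was -0.21, against 0.17 over all genes in this class.

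**Figure D4:**
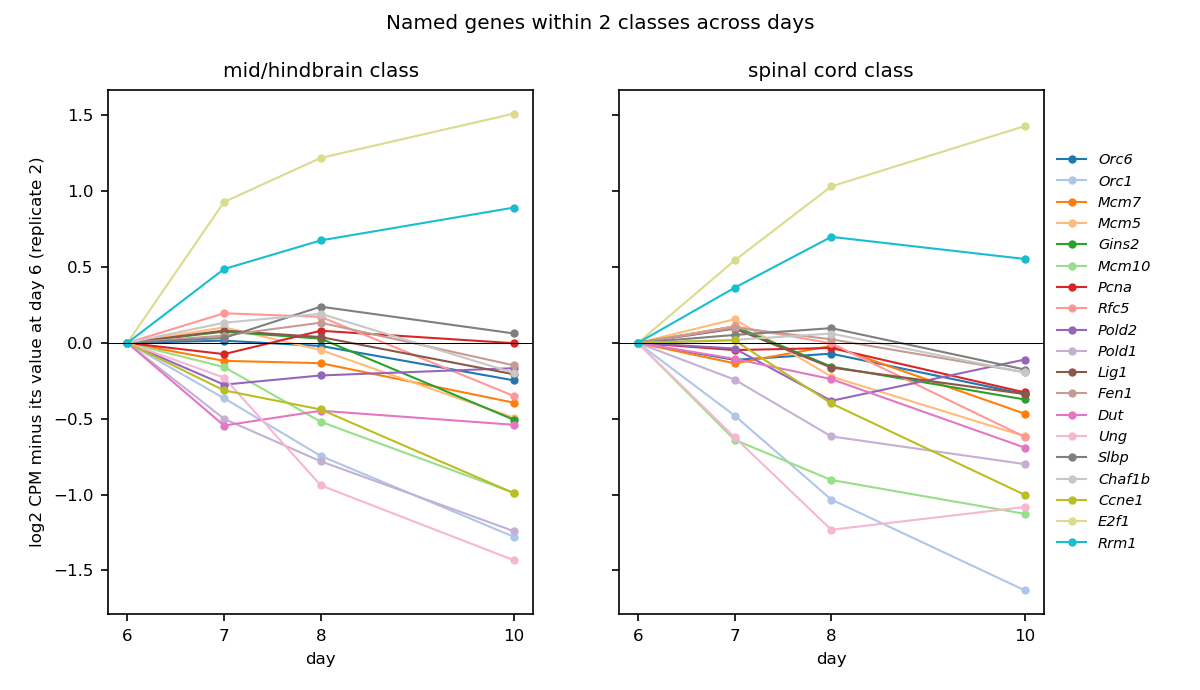
Log2 CPM minus its day 6 (replicate 2) value for 19 genes, days 6 to 10, inside the mid/hindbrain and spinal cord classes. E2f1 ends at the top of both panels and Rrm1 next, while Ung ends lowest in mid/hindbrain and Orc1 in spinal cord, and Pcna in mid/hindbrain is at 379 CPM on both end days.

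The level of a library can be split into the levels of its classes and their shares of its UMIs. With the class levels of day 8 and the class shares of day 10, the summed level would be 3383 CPM. The measured values were 2691 CPM at day 10 and 4493 CPM at day 8 (CPM of all UMIs, with no scaling factor). With the class levels of day 10 and the shares of day 8 it would be 3762 CPM. Both the shares and the levels within classes thus differed between day 10 and day 8.

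Cell by cell, the spread of S phase levels was wider in older organoids. Each cell was thinned to 5000 UMIs and the UMIs of the 41 genes were summed. In mid/hindbrain the median was 23 at days 6, 7 and 8 and 18 at day 10. The middle 90% of cells spanned 13 to 36 UMIs at day 6, 13 to 37 at day 7, 10 to 43 at day 8 and 5 to 42.3 at day 10. The ratio of variance to mean, which counting alone would put at 1, was 1.99, 2.44, 4.30 and 7.33 on those days. Day 10 thus held more cells with few UMIs and also more with many. Cells with 0 to 9 UMIs made 0.736% of mid/hindbrain at day 6 and 19.8% at day 10, and cells with 40 or more made 1.98% and 9.28%. The spinal cord class showed the same course, with a ratio of 1.81 at day 6, 1.96 at day 7, 4.70 at day 8 and 8.04 at day 10.

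**Figure D5:**
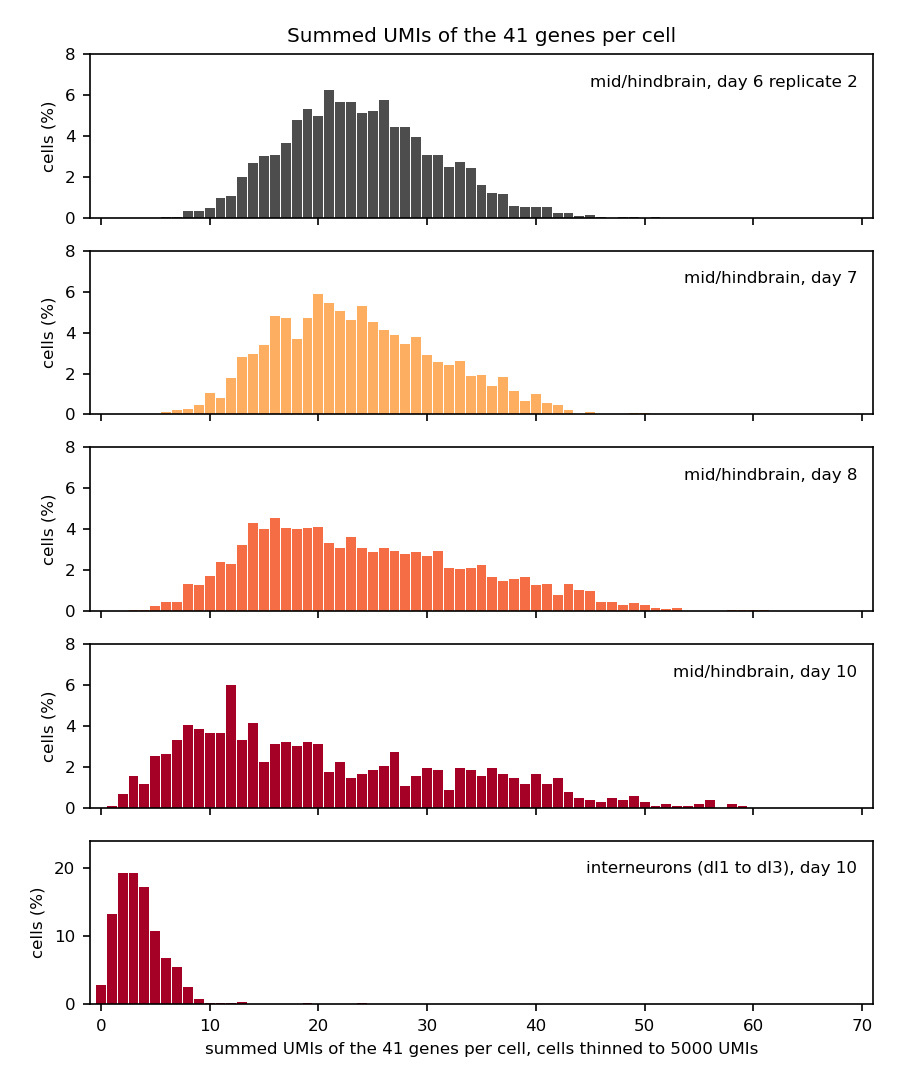
Share of cells (vertical axis, percent; the bottom panel has a taller scale) by summed UMIs of the 41 genes after thinning to 5000 UMIs, for mid/hindbrain at days 6, 7, 8 and 10 and for interneurons at day 10. The mid/hindbrain distribution is single-peaked around 23 at day 6 and broad at day 10, and the interneurons lie mostly below 10.

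Taking 10 of 5000 UMIs as a mark, 80.2% of mid/hindbrain cells (77.6 to 82.6%, exact binomial) were at or above it at day 10 and 99.3% at day 6. Of the interneurons at day 10, 1.70% were (1.04 to 2.61%, 20 of 1176 cells). Over all cells the share was 98.9% in the non-elongated library, and in elongated libraries 99.2 and 98.9% at day 6, 97.7% at day 7, 84.6% at day 8 and 41.5% at day 10. Intervals cover counting error only.

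The authors' clusters inside mid/hindbrain lay further apart at day 10 as well. In day 6 replicate 2 their summed levels ran from 3870 CPM (cluster 4) to 5600 CPM (cluster 1). At day 10 they ran from 2567 CPM (cluster 3, 147 cells) to 6868 CPM (cluster 1, 207 cells). Cluster 6 likewise stood at 4751 CPM at day 6 and 5696 CPM at day 10. Clusters were made from the same cells and genes, so this is a description of them and not a test.

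In the class the authors call proliferative neural progenitors the members differed among themselves. It made 4433 CPM at day 7, 5092 CPM at day 8 and 4842 CPM at day 10. At day 10 its G2 and mitosis genes (16) summed to 6502 CPM, against 3734 CPM in mid/hindbrain, and its neuron markers to 2778 CPM, against 307 CPM. Rrm2 measured 642 CPM in this class and 332 CPM in mid/hindbrain, Rrm1 257 and 190 CPM, and Cdc45 56.8 and 31.5 CPM. Others were lower there. Orc1 measured 3.1 CPM in the proliferative class and 7.34 CPM in mid/hindbrain, and Ung 5.97 and 18.0 CPM. Of the other licensing genes, Cdt1 was lower in the proliferative class (34.0 CPM, against 38.5 CPM), while Orc6 (178 and 129 CPM) and Cdc6 (23.4 and 21.6 CPM) were higher. At day 7 Ung already measured 14.4 CPM in this class and 41.4 CPM in mid/hindbrain.

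Other genes of the pathway, from lists drawn up beside the 41, were set against these changes at day 10. Of 45 further replication genes, 18 fell and none rose (median log2 fold change -0.81), where 12.3% of all genes fell and 14.1% rose. Among those that fell were Orc5, another subunit of the origin recognition complex (-1.79 ± 0.32, adjusted p = 0.00747), and Dctpp1, a nucleotide pool phosphatase (-1.57 ± 0.27, adjusted p = 0.00639). Within progenitors 3 of the 45 fell, Orc5 and Dctpp1 among them, a share no larger than the 8.24% of all genes that fell there. Of 16 genes of G2 and mitosis, 6 fell over all cells, Cdc20 by the most (-1.50 ± 0.31, adjusted p = 0.0129). Within progenitors none of the 16 fell and 2 rose, the topoisomerase gene Top2a (1.13 ± 0.27, adjusted p = 0.0268) and the proliferation marker Mki67 (1.01 ± 0.25, adjusted p = 0.0321). Over all genes 8.24% fell there and 8.85% rose, so counts this small lie near those shares.

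Among 22 further G1/S regulators, 5 fell and 3 rose over all cells, against 12.3% of all genes that fell and 14.1% that rose, so the share that rose was no larger than that of all genes. Those that fell included Ccnd1, the cyclin D1 gene (-1.61 ± 0.28, adjusted p = 0.00688), and Myc (-2.50 ± 0.40, adjusted p = 0.00464). Those that rose were Rb1, the retinoblastoma gene that restrains E2F (1.21 ± 0.31, adjusted p = 0.0263), its relative Rbl2 and the E2F partner Tfdp2 (1.55 ± 0.26, adjusted p = 0.00548). Within progenitors 4 fell and 5 rose, against 8.24% and 8.85% of all genes, with E2f2 among those that rose (1.22 ± 0.32, adjusted p = 0.039). Of 8 genes of cell cycle exit, 5 rose and Cdkn1a fell, where 14.1% of all genes rose and 12.3% fell. Gadd45g, which blocks cell cycle progression, stood at 4.68 ± 0.45 (adjusted p = 0.000566) and the inhibitor Cdkn1b at 1.84 ± 0.38 (adjusted p = 0.0126). The same 5 rose within progenitors, where 8.85% of all genes rose. The 62 replication-dependent histone genes depended on the table: their median log2 difference was 1.98 between replicate 2 and replicate 1. Of them 2 were called at day 10, both higher, a share no larger than the 14.1% of all genes that rose. Day 10 minus replicate 2 of the same table had a median of -0.48, with 49 of the 62 below 0, and day 10 minus replicate 1 of the other table a median of 1.62.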

How the data were processed

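Single-cell RNA was measured with the 10x assay in 6 libraries, and the deposited values were UMI counts per gene and cell, with the authors' metadata for each cell. Per the submitters' processing notes, Cell Ranger 3.1 and genome build mm10 were used; whether counting used strand is not given in the sources used here. The deposited metadata also give a percent of mitochondrial UMIs per cell, with medians of 4.10 to 5.81% a library, and other cell labels such as clusters and classes. The metadata of the day 6 table name its libraries NENT and SENT, read here as non-elongated and elongated. The fewest genes detected in a deposited cell were 3502 in the day 6 table and 3002 in the other, and how doublets were treated is not given in the sources used here, so no caller was run.

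From the counts, UMIs were summed per library, over all cells and over neural progenitor classes, for the 17296 shared symbols. Genes with at least 10 UMIs (edgeR's filterByExpr) were fitted with edgeR 4.0.16 (R 4.3.3), TMM scaling and quasi-likelihood tests of 5 group means, whose spread comes from the elongated day 6 duplicates (1 residual degree of freedom, and these lie in different tables), or a slope over day (3 residual degrees of freedom). All adjusted p-values are Benjamini-Hochberg values of these tests over all genes tested, with a threshold of 0.05, and SE is the standard error of the log2 fold change. CPM of libraries are TMM scaled, and CPM of classes are not. Class folds added 1 CPM and used genes with at least 5 CPM in either class, and plain ratios were printed as such. Class values carry exact Poisson intervals, and shares exact binomial (Clopper-Pearson) intervals, all at 95% and for counting error only. Cells were thinned to 5000 UMIs with a fixed seed, and no cell was shallower. The code of the fit was run on simulated counts that vary less between libraries than these data, so that run does not give error rates here.

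Genes with full values were, in each role group, the member with the highest mean level and the member with the largest change at day 10, and others are named for the count they belong to. The members and lists were chosen with earlier results of these data known. The values of 1 gene of the further replication list are not reported here. Exons of 13 members (Orc1, Orc6, Mcm7, Cdc45, Gins2, Rfc2, Rfc4, Rfc5, Fen1, Lig1, Chaf1a, Slbp and Ccne2) overlap those of a gene on the opposite strand, so their counts may hold reads of both. Alternatives were DESeq2 1.42.0, RLE scaling, no scaling, other filters, other summaries of cells, and leaving out libraries.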

Additional observations from a re-analysis of the deposited data

How the results depend on the processing

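No paired analysis was possible because every other group has a single library, so any pair of groups shares fewer than 2 replicate numbers, and those of the single libraries were given by accession order. Without either duplicate the group means have no residual degrees of freedom, so only log2 differences were taken. At day 8, 1 member was called with no scaling and 5 with DESeq2, all lower. Of all genes, 907 of 16379 were called lower and 1337 higher with no scaling, and 1279 of 14948 lower and 1101 higher with DESeq2. Within progenitors 0 and 2 members were called, the 2 lower. Of all genes there, 563 of 15789 were called lower and 756 higher with no scaling, and 907 of 14273 lower and 729 higher with DESeq2. At day 10, 20 to 32 members were called over all settings, all lower. Of 16379 genes, 1382 fell and 2991 rose with no scaling, and 2269 fell and 2431 rose with RLE scaling. Within progenitors 7 members were called with no scaling and 17 with DESeq2, 1 of them higher in each. There 918 of 15789 genes fell and 1658 rose with no scaling, and 1452 of 13938 fell and 1268 rose with DESeq2. The slope called 18 members without the neuron classes, where 1392 of 15614 genes fell and 1079 rose. It called 0 to 24 with each library left out. Within progenitors it called 0 to 13 (0 without either duplicate, against 18 with all). Without replicate 1 no gene at all was called there, and without replicate 2, 5 of 14657 genes were. Without day 7 it called 13 there, where 1110 of 14862 genes fell and 928 rose. Without day 8 it called 7 there, where 562 of 14997 genes fell and 608 rose. Without day 10 it called 3 there, where 651 of 15259 genes fell and 491 rose. None of the members called with a library left out rose. The members' median log2 fold change at day 7 was -0.091 with per-cell means, -0.081 with total UMIs and -0.13 against the duplicate of the same table, and -0.25 to -0.13 with each duplicate left out. At day 8 it was -0.23, -0.25, -0.24 and -0.46 to -0.24 in the same order, and -0.26 within progenitors. At day 10 it was -1.05 with per-cell means, -0.89 with total UMIs, -0.69 within progenitors, and -1.27 to -1.12 with each duplicate left out.

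The summed level, given for non-elongated, elongated day 6 replicates 1 and 2, and days 7, 8 and 10, was 5070, 4927, 4831, 4682, 4413 and 2438 CPM as a mean over cells. From total UMIs it was 5034, 4869, 4758, 4647, 4493 and 2691 CPM. In progenitors it was 5102, 4981, 5103, 4602, 4573 and 3192 CPM, and without Pcna 5275, 5032, 4681, 4203, 3969 and 2193 CPM. These progenitor sums used the TMM factors of all cells (1.12 at day 10). The progenitor CPM of single genes used factors of their own (1.08 at day 10). Without the proliferative class day 8 made 4301 CPM and day 10 made 2290 CPM. Thinned to 10000 UMIs, the share of cells at the mark was 99.5% in the non-elongated library, 99.6 and 99.6% in the duplicates and 98.2% at day 7, and in mid/hindbrain 99.8% at day 6, 99.6% at day 7 and 97.9% at day 8. Not thinned, it was 99.5, 99.8, 99.7, 98.8 and 86.2% from non-elongated to day 8, and in mid/hindbrain 99.95% at days 6 and 7 and 99.2% at day 8. By per-cell means, interneurons stood at 0.202 of mid/hindbrain at day 8, and mid/hindbrain at day 10 at 0.868 of day 6. The cause was not tested. Every adjusted p of the group means rests on the spread between the elongated day 6 duplicates.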
